A study of Mus musculus with 8 samples.

Results

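The gene set examined here comprises 41 interferon-stimulated and antigen presentation genes, taken as a named list and matched to the count table by Ensembl identifier. All 41 were found among its 55890 genes, and 40 of them passed the filter on low counts and were tested. Hypothalamic RNA from female mice aged 16 weeks was sequenced in 8 libraries, each 1 pool of 2 animals, with 4 pools of POMC-C451Af/f mice and 4 pools of controls. POMC-C451Af/f mice carry a POMC-Cre transgene and C451Af/f, a floxed mutant allele of Esr1 (estrogen receptor alpha), so the mutation is limited to cells in which the Pomc promoter drives or has driven Cre. Controls are C451Af/f littermates according to the methods of the study and wildtype according to the sample labels. Tissue, age and sex are shared by all pools. Control replicate 1 is the library that the labels call Pool2. The total estimated count was 40498166, 36651880, 36095253 and 36564223 in POMC-C451Af/f replicates 1 to 4 against 39692314, 43755502, 48942116 and 37841365 in control replicates 1 to 4. All 10 neuronal markers of the hypothalamus, Pmch being the most abundant, passed the filter in these libraries. So did 7 of 11 pituitary and 5 of 6 choroid plexus markers, so passing the filter does not check the tissue label. Esr1, the targeted gene, was counted at 11.6, 12.2, 9.997 and 10.8 CPM in POMC-C451Af/f replicates 1 to 4 against 12.3, 12.8, 11.6 and 15.97 CPM in control replicates 1 to 4 (CPM, counts scaled to the normalized library size). The groups overlapped (log2 fold change -0.23, standard error 0.104, edgeR adjusted p = 0.878). Counts per gene do not distinguish the mutated transcript, so Esr1 does not check the genotype labels here.

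Type I interferons bind a receptor whose signal leads Stat2 and Irf9 to switch on genes carrying an interferon-stimulated response element, whereas interferon gamma acts mainly on genes with gamma-activated sites. The induced genes encode proteins that sense or destroy viral RNA, block viral entry and replication, attack membranes around pathogens, and load peptides onto major histocompatibility complex (MHC) class I molecules. In the healthy brain these genes are expressed at a low basal level, mostly by microglia, endothelial cells and cells of the brain's borders.

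No member was called between the genotypes by edgeR's quasi-likelihood test, where a call required a false discovery rate of 0.05 and an absolute log2 fold change over 0.5, and 0.0215% of all 18637 tested genes were called. DESeq2 with its defaults, run without that filter on 32195 genes, called 13 genes, beside 4 with edgeR on the filtered table, and 0 members. At an unadjusted p under 0.05, 1 of 40 members passed in edgeR, and DESeq2 also gave 1. It was Gbp4 in both, and it was higher in POMC-C451Af/f pools. In the edgeR test 5.1% of all tested genes passed that threshold, and 2.7% passed it and were higher in POMC-C451Af/f pools. Leaving out 1 pool moved the count of members at that threshold to 6 without control replicate 1 (beside 3.37% of all genes tested in that setting) and to 3 without POMC-C451Af/f replicate 1 (5.32%). It was 2 without POMC-C451Af/f replicate 4 (4.34%) and 2 without control replicate 2 (6.29%), which is near the share over all genes. The genotype groups overlapped in all 40 members that passed the filter, though not in Mx1, which did not pass it. They did not overlap in 2.78% of all tested genes. The median log2 fold change of the members was 0.059, beside 0.00085 over all tested genes, and single members ranged from -0.09 to 0.43. The median was 0.22 without control replicate 1 and -0.0044 without POMC-C451Af/f replicate 2. Of the 40 members, 32 had a log2 fold change above 0, or 80.0%, beside 50.4% of all tested genes. Members share the same libraries and vary together between them, so these 32 are not separate observations.

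**Figure D1:**
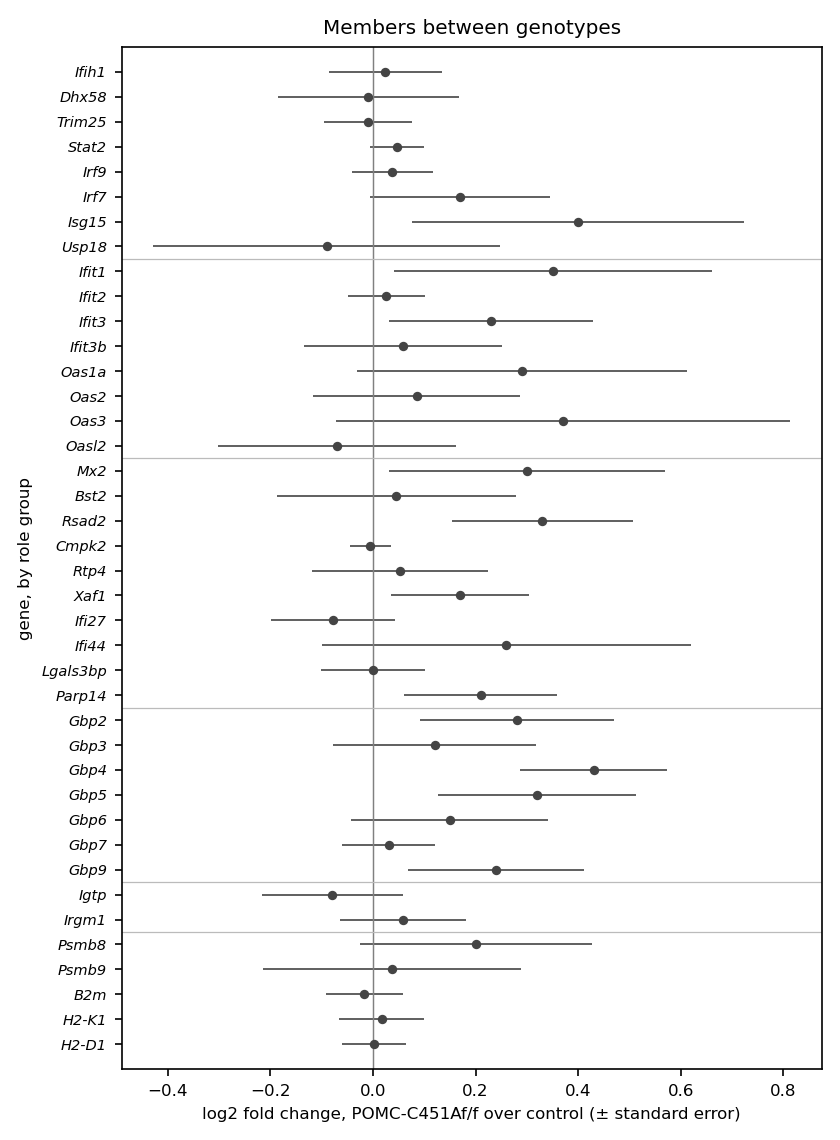
Log2 fold change of each tested member in POMC-C451Af/f over control pools, with its standard error as the horizontal bar (4 pools per genotype) and genes ordered by role group. The estimates lie between -0.09 and 0.43, and Gbp4 has the highest.

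Across pools the members followed a shared pattern that did not follow genotype. The mean of log2(CPM + 0.5) over the 40 members, centred on the 8 pools, was 0.3 in POMC-C451Af/f replicate 2 and 0.2 in control replicate 1. In the remaining POMC-C451Af/f pools it was -0.0062, -0.0095 and -0.1, and in the remaining control pools -0.091, -0.12 and -0.17. Thus 1 pool of each genotype stood above the others, and the genotype means, 0.046 ± 0.175 and -0.046 ± 0.17 (SD, n = 4 pools each), lay well within the spread between pools.

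Control replicate 1 was the highest of 8 pools for 11 of the 40 members (27.5%), beside 16.1% of all tested genes. It was the lowest pool for 0 members, beside 17.7% of all tested genes. Compared with the mean of the other 3 controls, 36 of 40 members were higher in this pool, beside 49.7% of all tested genes, and the median difference was 0.34 on the log2 scale, or 1.27-fold. POMC-C451Af/f replicate 2, singled out after its values were seen, was the highest pool for 21 members (52.5%), beside 11.1% of all tested genes. It exceeded the mean of the other 3 POMC-C451Af/f pools in 36 of 40 members, beside 49.7% of all tested genes, with a median difference of 0.33, or 1.25-fold. Control replicate 1 was therefore not the only pool in which the members were high. In 25 members (62.5%) these were the top 2 pools, beside 7.07% of all tested genes, a count likewise chosen after the values were seen.

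**Figure D2:**
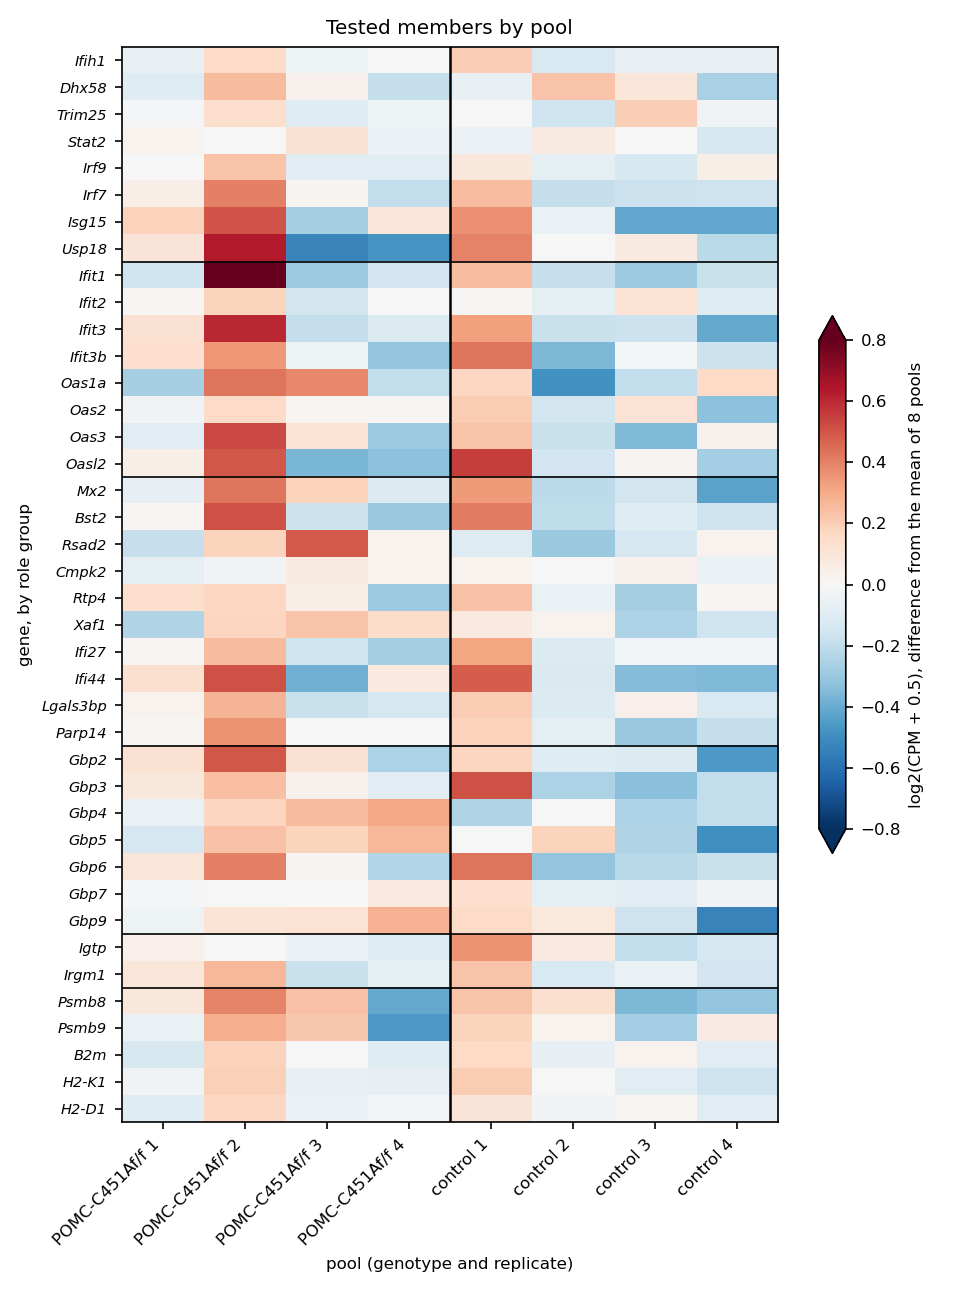
Heat map of the 40 tested members (vertical, by role group) in the 8 pools (horizontal), as log2(CPM + 0.5) minus the gene's mean over the pools (colour, saturated at -0.8 and 0.8). POMC-C451Af/f replicate 2 and control replicate 1 have the highest values, and Cmpk2, Stat2 and Gbp7 are nearly even across pools.

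The median Pearson correlation between pairs of members over the 8 pools was 0.54 (780 pairs), beside -0.001 over all pairs of tested genes. Centring each genotype on its mean left it at 0.54, so the co-movement was within genotypes. Without control replicate 1 it was 0.5, and without POMC-C451Af/f replicate 2 it was 0.42. Leaving out both pools, an alternative chosen after seeing the data, gave 0.13, beside -0.0007 over all pairs. These 2 pools were chosen for the high level of the members in them, and no other pair of pools was left out for comparison. These correlations describe 8 libraries and carry no p-value.

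**Figure D3:**
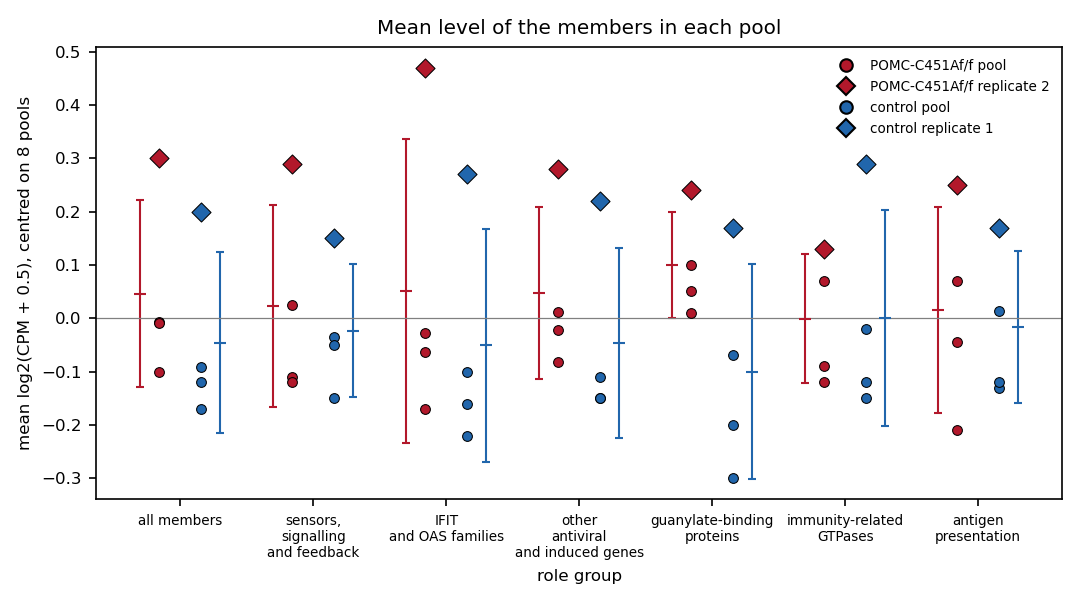
Mean centred log2(CPM + 0.5) of all members and of each role group in every pool (points), with the genotype mean and SD beside them (bars, n = 4 pools). POMC-C451Af/f replicate 2 and control replicate 1 (diamonds) are the highest pools of their genotype in every role group.

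Sensors of viral RNA, transducers of the interferon signal and its feedback regulators made up the first role group, with 8 tested members and a median log2 fold change of 0.031. Stat2, which carries the type I interferon signal to the nucleus, had the highest mean CPM of this group. Its normalized count was 29.6, 29.0, 31.6 and 28.1 CPM in POMC-C451Af/f replicates 1 to 4 against 28.1, 30.6, 29.1 and 26.5 CPM in control replicates 1 to 4. Stat2 was thus even across pools, and the fold change was small (log2 fold change 0.047, standard error 0.052, edgeR adjusted p = 0.908). Isg15 encodes a ubiquitin-like modifier that is conjugated to proteins during the interferon response. Its counts were 1.06, 1.45, 0.646 and 0.973 CPM in POMC-C451Af/f replicates 1 to 4 against 1.27, 0.825, 0.532 and 0.53 CPM in control replicates 1 to 4. The pool of each genotype with the most Isg15 was the one in which the members as a whole were high, and the groups overlapped (log2 fold change 0.4, standard error 0.324, edgeR adjusted p = 0.887). Without POMC-C451Af/f replicate 2 the log2 fold change of Isg15 was 0.19, and without control replicate 1 it was 0.71. Isg15 shares 482 bases at 95.2% identity with the gene AC151275.1, so the division of reads between them is uncertain. Usp18 removes Isg15 from proteins and restrains signalling at the type I interferon receptor. It lay between 0.73 and 2.26 CPM in the POMC-C451Af/f pools, with replicate 2 the highest, and between 1.03 and 1.84 CPM in the control pools, with replicate 1 the highest. Its highest pool had 3.09 times the level of its lowest, and both of these pools were POMC-C451Af/f. Irf7, a transcription factor that amplifies type I interferon production, had the closest correlation of the group with the mean of the other members (r = 0.96 over 8 pools), whereas Stat2 had the weakest (r = 0.076).

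The IFIT proteins bind viral RNA, and the OAS enzymes make the 2'-5' linked oligoadenylates that activate an RNA-degrading enzyme. Their 8 genes had a median log2 fold change of 0.16, and 6 of them had the same top 2 pools. Ifit1 was counted at 2.72, 6.72, 2.44 and 2.73 CPM in POMC-C451Af/f replicates 1 to 4 against 3.75, 2.66, 2.43 and 2.67 CPM in control replicates 1 to 4. Replicate 2 of the POMC-C451Af/f pools stood far above the rest, and without it the log2 fold change of Ifit1 went from 0.35 to -0.13. For Ifit3 the counts were 11.1, 15.7, 8.85 and 9.37 CPM in POMC-C451Af/f replicates 1 to 4 against 12.9, 8.94, 8.98 and 7.52 CPM in control replicates 1 to 4. Here too 1 pool of each genotype was high and the groups overlapped (log2 fold change 0.23, standard error 0.199, edgeR adjusted p = 0.891). The log2 fold change of Ifit3 was 0.028 without POMC-C451Af/f replicate 2 and 0.41 without control replicate 1. Ifit3 shares 1700 bases at 97.8% identity with Ifit3b, so the division of reads between them is uncertain.

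Oasl2, an OAS-like protein, was counted at 7.11, 9.89, 5.22 and 5.37 CPM in POMC-C451Af/f replicates 1 to 4 against 10.3, 6.12, 6.99 and 5.59 CPM in control replicates 1 to 4. Its top 2 pools were again 1 of each genotype, and the groups overlapped (log2 fold change -0.07, standard error 0.232). The direction of Oasl2 depended on the pools, with 0.14 without control replicate 1 and -0.3 without POMC-C451Af/f replicate 2. Oas3 was near the detection limit, at 0.296, 0.725, 0.421 and 0.195 CPM in POMC-C451Af/f replicates 1 to 4 against 0.496, 0.252, 0.164 and 0.371 CPM in control replicates 1 to 4. Its lowest pool held 6.92 estimated counts, and without POMC-C451Af/f replicate 2 its log2 fold change went from 0.37 to -0.056. Ifit2 had the highest mean CPM of the group, with 16.4, 18.4, 14.6 and 16.2 CPM in POMC-C451Af/f replicates 1 to 4 against 16.3, 15.4, 17.6 and 15.1 CPM in control replicates 1 to 4. Unlike Ifit3, Ifit2 had control replicate 3 rather than replicate 1 as its highest control pool. Oas1a shares 1861 bases at 97.6% identity with Oas1g and is uncertain in the same way as Ifit3.

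Among the other antiviral and induced genes, 10 of 11 were tested, with a median log2 fold change of 0.11. Mx1, a GTPase that traps viral nucleocapsids, did not pass the filter and has no test in the edgeR fit on the filtered table. Without that filter all 41 members were tested by edgeR, as by DESeq2, and only Gbp4 had an unadjusted p under 0.05. Mx1 was at 0.272, 0.376, 0.197 and 0.195 CPM in POMC-C451Af/f replicates 1 to 4 against 0.174, 0.16, 0.143 and 0.185 CPM in control replicates 1 to 4. The groups of Mx1 did not overlap, but its lowest pool held only 7 counts. Mx1 shares 920 bases at 94.8% identity with Mx2, so the division of reads between them is uncertain. Rsad2 encodes viperin, which makes a chain-terminating nucleotide. Its counts were 1.88, 2.55, 3.29 and 2.25 CPM in POMC-C451Af/f replicates 1 to 4 against 2.01, 1.7, 1.96 and 2.25 CPM in control replicates 1 to 4. The highest Rsad2 pool was POMC-C451Af/f replicate 3, so this gene departed from the shared pattern, and the groups overlapped (log2 fold change 0.33, standard error 0.177, edgeR adjusted p = 0.878). The log2 fold change of Rsad2 was 0.17 without POMC-C451Af/f replicate 3 and 0.44 without POMC-C451Af/f replicate 1, where its unadjusted p was 0.0253 (edgeR). Cmpk2, a mitochondrial nucleotide kinase that lies next to Rsad2 on chromosome 12, was counted at 29.9, 30.9, 33.1 and 32.1 CPM in POMC-C451Af/f replicates 1 to 4 against 32.2, 31.5, 32.3 and 30.4 CPM in control replicates 1 to 4. It was the most even member, with a highest pool only 1.11 times its lowest. Bst2, which tethers budding virus to the cell surface, and Mx2 were closest to the other members (r = 0.92 and 0.95 over 8 pools).

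Guanylate-binding proteins are interferon-induced GTPases that assemble on the membranes of intracellular pathogens. The 7 listed genes lie in 2 clusters of GRCm38, with Gbp2, Gbp3, Gbp5 and Gbp7 on chromosome 3 and Gbp4, Gbp6 and Gbp9 on chromosome 5. All 7 had a log2 fold change above 0, beside 50.4% of all tested genes, with a median of 0.24. They share the same libraries, so these 7 are not separate observations. Gbp6 was at only 0.012 without POMC-C451Af/f replicate 2. Without control replicate 3, Gbp3 was at 0.015 and Gbp7 at 0.0021.

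Gbp4 (ENSMUSG00000079363.8) lies on the minus strand of chromosome 5 from 105115767 to 105139586. Its normalized count was 1.9, 2.31, 2.47 and 2.59 CPM in POMC-C451Af/f replicates 1 to 4 against 1.61, 1.99, 1.6 and 1.67 CPM in control replicates 1 to 4. Of the POMC-C451Af/f pools 3 lay above every control pool, and replicate 1 lay below control replicate 2, so the groups overlapped. The means were 2.32 ± 0.3 CPM and 1.72 ± 0.187 CPM (SD, n = 4 pools each). The fitted difference was 0.43 on the log2 scale, with 0.143 as its standard error. By edgeR's quasi-likelihood test its unadjusted p was 0.0124, and the adjusted p over all tested genes (Benjamini-Hochberg) was 0.878. A two-sided exact permutation test on log2(CPM + 0.5) gave p = 0.0571, where the smallest p that 4 against 4 pools allow is 0.0286. The members, Gbp4 among them, were chosen with earlier results of these data known. The unadjusted and permutation p-values are therefore not those of a gene chosen beforehand. Gbp4 did not share the pool pattern of the other members: control replicate 1 differed from the mean of the other 3 controls by -0.088 on the log2 scale, and its correlation with the mean of the other members was r = 0.11 (Spearman's rho 0.26, 8 pools). Without control replicate 1 and POMC-C451Af/f replicate 2 its log2 fold change was 0.4, with an unadjusted p of 0.0527 and an adjusted p of 0.818 (edgeR), and over all alternatives tried its adjusted p lay between 0.493 and 1.0.

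The nearest to Gbp4 among the listed family members was Gbp5, which promotes inflammasome assembly (r = 0.79 over 8 pools). Gbp5 was counted at 1.8, 2.47, 2.36 and 2.53 CPM in POMC-C451Af/f replicates 1 to 4 against 2.03, 2.36, 1.64 and 1.3 CPM in control replicates 1 to 4. As with Gbp4, replicate 1 was the lowest POMC-C451Af/f pool, and the groups overlapped (log2 fold change 0.32, standard error 0.193, edgeR adjusted p = 0.878). Gbp9 had 3.01, 3.39, 3.4 and 3.87 CPM in POMC-C451Af/f replicates 1 to 4 against 3.5, 3.32, 2.72 and 1.99 CPM in control replicates 1 to 4. Its correlation was 0.62 with Gbp4 and 0.93 with Gbp5. Gbp9 overlaps Gbp4 on the same strand of chromosome 5, from 105077630 to 105139539.

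Gbp6 and Gbp3 followed the shared pattern instead. For Gbp6, the family member with the highest mean CPM, the counts were 6.3, 7.93, 5.98 and 4.92 CPM in POMC-C451Af/f replicates 1 to 4 against 8.06, 4.61, 4.95 and 5.14 CPM in control replicates 1 to 4. For Gbp3 they were 4.49, 5.02, 4.3 and 3.89 CPM in POMC-C451Af/f replicates 1 to 4 against 6.15, 3.42, 3.21 and 3.58 CPM in control replicates 1 to 4. In both genes control replicate 1 was the highest of all pools, and the correlation between them was 0.94, whereas that of Gbp4 was -0.024 with Gbp6 and 0.045 with Gbp3. Gbp2 had 4.22, 5.62, 4.21 and 3.14 CPM in POMC-C451Af/f replicates 1 to 4 against 4.39, 3.55, 3.52 and 2.65 CPM in control replicates 1 to 4. Gbp7 was the most even of the family, with 4.62, 4.67, 4.69 and 4.98 CPM in POMC-C451Af/f replicates 1 to 4 against 5.19, 4.42, 4.38 and 4.58 CPM in control replicates 1 to 4. Gbp2 also followed the shared pattern (r = 0.89 with the mean of the other members over 8 pools). It was highest in POMC-C451Af/f replicate 2, with control replicate 1 next. Gbp7 was highest in control replicate 1. Per kilobase of transcript, Gbp4 had the lowest level of the listed family members at 0.445 CPM per kb and Gbp6 the highest at 2.3 CPM per kb.

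**Figure D4:**
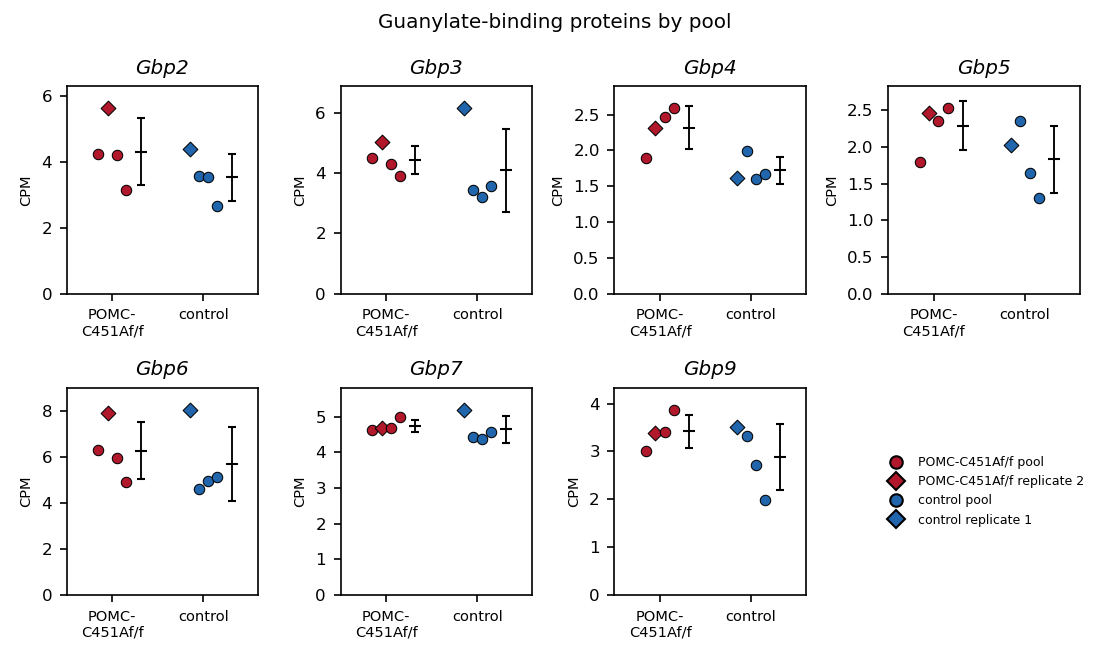
Normalized counts (CPM) of the 7 guanylate-binding proteins in each pool (points; diamonds are POMC-C451Af/f replicate 2 and control replicate 1), with the mean and SD of each genotype (n = 4 pools). Control replicate 1 is the highest pool for Gbp3, Gbp6 and Gbp7 but not for Gbp4, in which it is at 1.61 CPM.

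Gbp4 was also set against its family. It amounted to 7.78%, 7.94%, 9.91% and 11.1% of the summed CPM of the other 6 genes in POMC-C451Af/f replicates 1 to 4 against 5.5%, 9.2%, 7.82% and 8.68% in control replicates 1 to 4. The groups overlapped, and the lowest share was that of control replicate 1, in which the other 6 genes summed to 29.3 CPM beside 21.7, 20.4 and 19.2 CPM in the other controls. The difference in the log2 ratio was 0.25 (two-sided exact permutation test, p = 0.343, smallest possible 0.0286). With 1 pool left out the difference ranged from 0.087 without control replicate 1 to 0.33 without control replicate 2. Gbp4 shares 2438 bases at 90.7% identity with Gbp11, and Gbp6 shares 2603 bases at 99.8% identity with the predicted gene Gm43302 and 2536 bases at 98.7% with Gbp10, so the division of counts within the chromosome 5 cluster is uncertain. Of the family members outside the list, Gbp11 was tested (log2 fold change 0.057, edgeR adjusted p = 0.98), whereas Gbp2b, Gbp8 and Gbp10 did not pass the filter.

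The immunity-related GTPases Irgm1 and Igtp act on pathogen vacuoles and in autophagy. Irgm1 was counted at 8.47, 9.56, 6.91 and 7.43 CPM in POMC-C451Af/f replicates 1 to 4 against 9.3, 7.2, 7.57 and 7.02 CPM in control replicates 1 to 4. Igtp was counted at 4.47, 4.33, 4.16 and 4.01 CPM in POMC-C451Af/f replicates 1 to 4 against 5.71, 4.61, 3.72 and 3.89 CPM in control replicates 1 to 4. Both were highest among controls in replicate 1, and their log2 fold changes were 0.059 for Irgm1 and -0.079 for Igtp. Both directions turned with 1 pool left out, to -0.033 for Irgm1 without POMC-C451Af/f replicate 2 and to 0.057 for Igtp without control replicate 1.

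Antigen presentation was represented by the class I heavy chains H2-K1 and H2-D1, their light chain B2m, and the immunoproteasome subunits Psmb8 and Psmb9, which cut peptides for loading. The 5 genes had a median log2 fold change of 0.017. H2-D1 was counted at 59.4, 71.5, 61.6 and 62.5 CPM in POMC-C451Af/f replicates 1 to 4 against 68.3, 62.4, 64.4 and 59.6 CPM in control replicates 1 to 4. For Psmb8 the counts were 2.72, 3.49, 3.06 and 1.78 CPM in POMC-C451Af/f replicates 1 to 4 against 3.05, 2.8, 1.86 and 1.93 CPM in control replicates 1 to 4. In both genes the same pool of each genotype was the highest, and both groups overlapped, with a log2 fold change of 0.0019 for H2-D1, which was -0.0062 when scaled by total counts, and 0.2 for Psmb8 (edgeR adjusted p = 0.999 and 0.913). For Psmb8 it was 0.063 without POMC-C451Af/f replicate 2 and 0.36 without POMC-C451Af/f replicate 4. H2-D1 shares 1404 bases at 90.6% identity with H2-K1, and both share sequence with other class I genes, which makes the count of each uncertain. Per kilobase, B2m was the most abundant member at 71.4 CPM per kb.

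Promoters are shown because many of the members moved together. The promoter table (RefSeq, GRCm38.p6; 250 bases before to 50 after the start) held 30 of the 41 members and had no entry for 11: Dhx58, Gbp4, Gbp6, Gbp9, Ifi27, Mx1, Mx2, Oas2, Parp14, Rtp4 and Usp18. The letters GAAANNGAA, the core of the interferon-stimulated response element, were found on either strand in 19 of these 30 members (63.3%), beside 8.56% of 32851 promoters. They were found in all 4 guanylate-binding proteins with an entry, Gbp2, Gbp3, Gbp5 and Gbp7. The letters TTCNNNGAA, the core of the gamma-activated site, were found in 7 of 30 (23.3%), beside 8.3% of all promoters. For both motifs a member was counted if any of its windows held a match. The share over all promoters is per window, so the shares set side by side differ in unit. Matches of the 2 motifs overlapped in 1 of the 5 member windows that held both. The 4 members with GAAANNGAA that had the largest absolute log2 fold changes are printed 5' to 3' on the strand of the gene, with the matches of GAAANNGAA on either strand in capitals. They lie at chr4:156200769-156201068 (minus strand) for Isg15, chr5:120777610-120777909 (minus strand) for Oas3, chr19:34640639-34640938 (plus strand) for Ifit1 and chr12:26456403-26456702 (minus strand) for Rsad2.
Isg15: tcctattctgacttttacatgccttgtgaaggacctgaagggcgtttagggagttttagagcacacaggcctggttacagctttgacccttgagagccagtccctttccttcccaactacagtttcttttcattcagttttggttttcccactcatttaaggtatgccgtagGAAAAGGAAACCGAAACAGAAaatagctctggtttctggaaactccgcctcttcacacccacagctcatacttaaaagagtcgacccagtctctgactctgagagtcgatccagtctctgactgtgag
Oas3: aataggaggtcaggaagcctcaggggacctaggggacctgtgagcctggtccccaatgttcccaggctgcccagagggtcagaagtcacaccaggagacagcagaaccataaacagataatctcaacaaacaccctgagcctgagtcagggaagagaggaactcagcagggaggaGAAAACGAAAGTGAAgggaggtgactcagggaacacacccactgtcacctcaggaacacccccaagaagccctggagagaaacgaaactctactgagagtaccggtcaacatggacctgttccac
Ifit1: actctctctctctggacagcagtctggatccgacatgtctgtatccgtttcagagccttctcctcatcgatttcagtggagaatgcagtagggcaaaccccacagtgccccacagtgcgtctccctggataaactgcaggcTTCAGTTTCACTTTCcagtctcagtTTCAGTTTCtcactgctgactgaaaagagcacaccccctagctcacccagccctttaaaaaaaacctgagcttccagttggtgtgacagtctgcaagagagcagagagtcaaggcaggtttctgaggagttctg
Rsad2: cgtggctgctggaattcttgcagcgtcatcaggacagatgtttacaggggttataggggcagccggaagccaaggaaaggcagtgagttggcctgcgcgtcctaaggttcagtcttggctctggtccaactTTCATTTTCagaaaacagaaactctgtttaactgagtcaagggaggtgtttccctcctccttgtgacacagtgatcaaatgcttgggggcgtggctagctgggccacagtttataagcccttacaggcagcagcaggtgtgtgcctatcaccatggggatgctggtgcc

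Matches in Isg15 and Oas3 run into each other on the strand of the gene, those of Ifit1 lie on the opposite strand, and Rsad2 has a single match there. Cmpk2, which was even across pools, had neither motif in its window, but Stat2, which was also even, had GAAANNGAA. A match describes the letters only.

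Other genes of the pathway were examined as lists. Of 21 interferon ligands 0 passed the filter and 14 had no count in any pool, Ifnb1 among them, while Ifng reached at most 6 counts. Of 18 receptor and signalling genes 0 were called and 0 had an unadjusted p under 0.05 (edgeR), with a median log2 fold change of 0.0029.

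Of 13 sensors outside the list 12 were tested. At an unadjusted p under 0.05 (edgeR) 2 passed, both higher in POMC-C451Af/f pools. Of all tested genes 2.7% passed and were higher in these pools. Tlr9, an endosomal receptor for unmethylated DNA, had 1.11, 0.913, 1.1 and 1.06 CPM in POMC-C451Af/f replicates 1 to 4 against 0.521, 0.435, 0.736 and 0.556 CPM in control replicates 1 to 4. The groups did not overlap, but the adjusted p over all tested genes was 0.814 (edgeR; log2 fold change 0.88, standard error 0.201). Tlr3, which senses double-stranded RNA, had a log2 fold change of 0.2 (edgeR adjusted p = 0.878). Among 41 tested further induced genes, 1 was higher and 1 lower at an unadjusted p under 0.05, beside 5.1% of all tested genes. They were Sp100 (log2 fold change 0.31) and Pml (log2 fold change -0.16), which encode partners in the same nuclear bodies (edgeR adjusted p = 0.878 for each). These 41 genes had a mean centred log2 level of 0.19 in POMC-C451Af/f replicate 2 and 0.15 in control replicate 1, the highest of their genotypes.

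Among 21 tested further antigen presentation genes 0 had an unadjusted p under 0.05 (edgeR). POMC-C451Af/f replicate 2 and control replicate 1 were the top 2 pools in 12 of them, beside 7.07% of all tested genes. Of these, the class II gene Cd74, chosen after its values were seen, was counted at 4.3, 8.49, 4.8 and 3.7 CPM in POMC-C451Af/f replicates 1 to 4 against 8.78, 4.45, 7.4 and 3.13 CPM in control replicates 1 to 4. It was high in control replicate 3 as well, where the listed members were not. The 5 tested genes outside all lists closest to the mean of the members were Siglece, Cldn14, Ngdn, Nek5 and Lrrc10b, with r between 0.948 and 0.966 over 8 pools.

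Markers of several cell types varied between the same pools. The 6 leptomeningeal fibroblast markers, Col1a2 being the most abundant, summed to 61.5, 99.5, 48.8 and 49.5 CPM in POMC-C451Af/f replicates 1 to 4 against 102, 59.3, 100.2 and 45.8 CPM in control replicates 1 to 4. The 7 border macrophage markers, 6 of them tested and Mrc1 the most abundant, summed to 6.49, 12.5, 6.57 and 4.98 CPM in POMC-C451Af/f replicates 1 to 4 against 11.2, 6.49, 12.4 and 4.93 CPM in control replicates 1 to 4. Both lists were high in POMC-C451Af/f replicate 2 and control replicate 1, and also in control replicate 3, where the mean level of the members was low. The 11 pituitary markers, 7 of them tested and Prl the most abundant, summed to 246, 55.0, 35.5 and 214 CPM in POMC-C451Af/f replicates 1 to 4 against 1478, 116, 45.4 and 54.9 CPM in control replicates 1 to 4. They were high in control replicate 1 but not in POMC-C451Af/f replicate 2. The 10 hypothalamic neuron markers, all tested and led by Pmch, summed to 1159, 1344, 810.1 and 1016 CPM in POMC-C451Af/f replicates 1 to 4 against 1611, 1141, 1365 and 1108 CPM in control replicates 1 to 4. Control replicate 1 was the highest pool for 7 of these 10 markers, and it and POMC-C451Af/f replicate 2 were the highest of their genotypes in the sum. The median log2 difference of these markers was 0.42 for either pool over the other pools of its genotype, beside 0.34 and 0.33 for the members. The part of these cell types in the level of the members was not tested. In bulk tissue fewer cells of a type and less RNA per cell cannot be told apart.

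**Figure D5:**
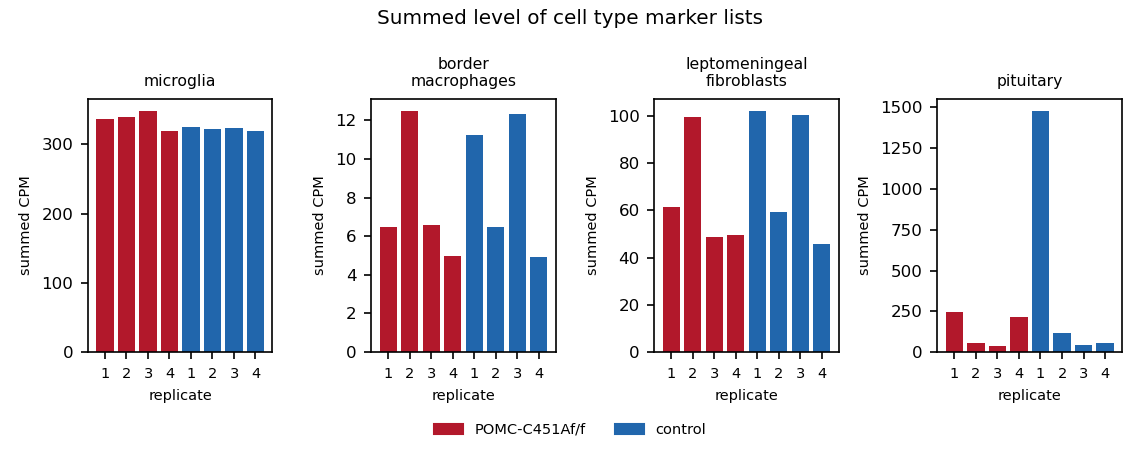
Summed CPM of 4 marker lists in each pool (bars from 0; each panel has its own scale). Border macrophage and leptomeningeal markers are high in 3 pools, pituitary markers in control replicate 1, and microglial markers are even.

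The 11 microglial markers, all tested, summed to between 319 and 348 CPM in the 8 pools. Brain endothelial markers (9 tested, led by Flt1) summed to between 243 and 287 CPM, and astrocyte markers (6 tested, led by Slc1a2) to between 2255 and 2386 CPM. These 3 sums were nearly even across pools, but the genotype groups did not overlap in the astrocyte sum. It lay between 2364 and 2386 CPM in POMC-C451Af/f pools and between 2255 and 2360 CPM in control pools. Slc1a2, the leading astrocyte marker, and Cx3cr1 of microglia did not overlap either (log2 fold change 0.083 and 0.13, edgeR adjusted p = 0.878 each). The groups did not overlap in 2.78% of all tested genes. Of the 11 microglial markers 10 had a log2 fold change above 0, beside 50.4% of all tested genes, with a median of 0.081. Single markers varied more, and those named here were chosen after their values were seen. Aqp4 of the astrocyte list lay between 139 and 163 CPM in POMC-C451Af/f pools and between 118 and 124 CPM in control pools, with no overlap (log2 fold change 0.29, edgeR adjusted p = 0.198). The list went both ways, with 3 markers of log2 fold change above 0 and 3 below, among them Aldh1l1 (-0.086), whose groups did not overlap either. In the endothelial list the highest pool of Vwf had 1.71 times the level of its lowest, and that of Kdr 1.66 times. Choroid plexus markers (5 of 6 tested, led by Clic6) summed to between 29.6 and 38.7 CPM. Red blood cell markers (5 tested, led by Hbb-bs) summed to 329, 338, 545 and 177 CPM in POMC-C451Af/f replicates 1 to 4. In control replicates 1 to 4 their sums were 299, 229, 139 and 201 CPM. All 5 had a log2 fold change above 0, beside 50.4% of all tested genes, with a median of 0.58, and the groups overlapped. Neutrophil markers, led by S100a9, were near 0, with 0 of 6 tested. They summed to 0.346, 0.511, 0.814 and 0.501 CPM in POMC-C451Af/f replicates 1 to 4 against 0.149, 0.275, 0.307 and 0.132 CPM in control replicates 1 to 4, so the groups did not overlap, and the part of this in the level of the members was not tested. Markers of T and NK cells (2 of 12 tested, led by Lck) summed to between 4.24 and 5.35 CPM, with no untested marker above 0.337 CPM in any pool. B cell markers (3 of 6 tested, led by Ighm) summed to between 9.14 and 12.2 CPM. No marker of these lists was at 0 in all pools. In the edgeR test 0 markers of any list were called, as with the members. At an unadjusted p under 0.05, 2 of 11 microglial, 1 of 9 endothelial and 2 of 6 astrocyte markers were higher in POMC-C451Af/f pools. So were 1 of 3 B cell and 2 of 5 red blood cell markers. Lower were 1 of 6 astrocyte and 2 of 10 hypothalamic neuron markers, beside 5.1% of all tested genes in either direction. Log2 fold changes were below 0 in 9 of 10 hypothalamic neuron and all 7 tested pituitary markers. All 6 tested border macrophage and all 6 leptomeningeal markers were also below 0, whereas 50.4% of all tested genes were above 0. The part of these markers in the level of the members was not tested.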

How the data were processed

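The authors quantified reads with Salmon (1.10 in the submitters' processing notes, which name GRCm39) and deposited estimated counts per gene, not normalized between pools; transcript length offsets were not used here. A deposited table of the authors' own comparison holds fold changes and p-values and was not used. Each estimated count was rounded, and the table was filtered with filterByExpr (minimum count 10, minimum total count 15), scaled by TMM and tested over 18637 genes with edgeR 4.0.16 (R 4.3.3), with Benjamini-Hochberg adjustment. The standard error is the absolute log2 fold change over the square root of F. Levels are CPM, and correlations and permutation tests used log2(CPM + 0.5). Positions come from the M21 release of GENCODE (GRCm38), joined on the gene identifier and not converted. Shared sequence was searched with blastn among M21 transcripts (identity of at least 90%, at least 300 bases). The procedure was tested on simulated data.

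The members and lists were chosen with earlier results of these data known. Per-pool values are given for every tested guanylate-binding protein, members with an unadjusted p under 0.05, the member with the highest mean CPM and the one with the largest absolute log2 fold change in each role group, and the 5 widest ranges (Usp18 by its range in each genotype). From other lists up to 3 genes with the smallest p may be named, and the 5 genes outside all lists most like the members. The marker lists cover microglia, border macrophages, brain endothelium, astrocytes, T and NK cells, B cells, neutrophils, red blood cells, pituitary, choroid plexus, leptomeningeal fibroblasts and hypothalamic neurons. Alternatives were DESeq2 1.42.0, its size factors, total counts, other filters, robust empirical Bayes, a block for the replicate number, each pool left out and, for correlations, Spearman's method, a pseudocount of 0.1 and centring. P-values measure the spread between pools of 2 animals.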

Additional observations from a re-analysis of the deposited data

Results flagged for a closer look

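In 6 of 84 groups of 4 pools, 1 pool stood apart from the others of its genotype, where the gap to the nearest pool over the range of the group exceeded Dixon's critical value for 4 values. Chance alone gives about 1 in 20 groups, or 4.2 of 84, when groups are separate and not chosen for their spread. Some single genes here were named for their wide range, and the role groups hold the same genes again, so that rate is only a rough guide.

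Control replicate 1 was the highest control pool for the mean level of the other antiviral and induced genes (gap 0.905), for Gbp3 (gap 0.876) and for Gbp6 (gap 0.846). In the same pool the pituitary markers were highest (gap 0.95) and the summed markers of T and NK cells lowest (gap 0.868). POMC-C451Af/f replicate 2 was the highest POMC-C451Af/f pool for Ifit1 (gap 0.934). Over all members the gap was 0.782 for control replicate 1 and 0.765 for POMC-C451Af/f replicate 2, below that limit in both genotypes.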

How the results depend on the processing

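The count of members called was 0 in every setting tried, while the count of genes called went from 4 of 18637 to 13 of 32195 with DESeq2 at its defaults, which also leaves out the filter on low counts, to 2 with at least 10 counts in every pool and to 2 with the replicate number as a block. Same-numbered pools did not pair: the correlations of their deviations were 0.14, -0.18, -0.11 and 0.24. With the block 1 member had an unadjusted p under 0.05 and Gbp4 had a log2 fold change of 0.43.

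Members with an unadjusted p under 0.05 numbered 1 to 6 with 1 pool left out. There were 6 without control replicate 1 (Gbp3, Gbp4, Gbp6, Isg15, Mx2 and Parp14, beside 3.37% of all tested genes), 3 without POMC-C451Af/f replicate 1 (beside 5.32%), and 2 each without POMC-C451Af/f replicate 4 (4.34%) or control replicate 2 (6.29%). The median log2 fold change ranged from -0.0044 without POMC-C451Af/f replicate 2 to 0.22 without control replicate 1. The median correlation ranged from 0.42 to 0.6 with 1 pool left out, was 0.45 with Spearman's method and 0.13 without both high pools, a setting chosen after seeing the data. Gbp4 ranged from 0.37 to 0.51 with 1 pool left out, its ratio to the other guanylate-binding proteins from 0.087 to 0.33 on the log2 scale, and its adjusted p lay between 0.493 and 1.0 over the alternatives.

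Of 20 other named members 9 changed direction in some setting, none of them called. With 1 pool left out, log2 fold changes ranged from -0.5 to 0.1 for Usp18, -0.13 to 0.5 for Ifit1, -0.037 to 0.077 for Ifit2, -0.056 to 0.66 for Oas3, -0.3 to 0.14 for Oasl2, -0.031 to 0.018 for Cmpk2, -0.16 to 0.057 for Igtp, -0.033 to 0.16 for Irgm1 and -0.061 to 0.035 for H2-D1. Those that kept their direction also moved, from 0.013 to 0.08 for Stat2, 0.19 to 0.71 for Isg15, 0.028 to 0.41 for Ifit3, 0.17 to 0.44 for Rsad2, 0.13 to 0.41 for Gbp2, 0.015 to 0.38 for Gbp3, 0.19 to 0.46 for Gbp5, 0.012 to 0.36 for Gbp6, 0.0021 to 0.086 for Gbp7, 0.1 to 0.34 for Gbp9 and 0.063 to 0.36 for Psmb8. Without both high pools the values were -0.033 for Ifit2, 0.01 for Cmpk2, 0.047 for Igtp and -0.025 for H2-D1. H2-D1 was also -0.0062 with total counts and -0.0026 without a filter. The cause was not tested. Oas3, at 6.92 counts in its lowest pool, had the widest standard error of the tested members (0.443).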
